A study of Mus musculus with 6 samples.

Results

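The genes described here are 7 mouse genes tied to the germline and to early embryonic cells: Dppa3, Dppa4, Morc1, Tcl1, Dppa5a, Rhox5 and Rpl39l. Every non-control probe whose gene name mapped to one of them was taken, which gave 7 of 37217 genes and 10 of the 41006 probes on the array. Dppa5a had 4 probes and each other gene had 1. The 7 genes were picked with earlier results of these same arrays in view, so their differences between the groups are given as a description, with standard errors and without tests.

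The arrays held 3 kinds of cultured mouse cells, with 2 arrays for each kind. Multipotent adult progenitor cells (MAPC) are a cultured cell type derived from bone marrow. Both MAPC arrays came from a single clone described as high in Oct4, which the labels call mMAPC-1 in one field and clone 2 in another. It was grown in 5% oxygen with 2% serum, leukemia inhibitory factor, epidermal growth factor and platelet-derived growth factor, for over 80 population doublings. Cells carrying the blood markers CD45 or Ter119 had been removed at week 4, and the rest were plated at 10 cells per well. Embryonic stem cells (ESC) were C57BL/6 cells kept in 15% serum with leukemia inhibitory factor on irradiated embryonic fibroblasts and plated without feeders before RNA was taken. Neurospheres (NS), floating clusters of neural progenitors, came from the forebrain of C57BL/6 E11.5 embryos and were grown with basic fibroblast and epidermal growth factors. Each kind had its own medium, so a cell type and its culture cannot be told apart. The labels call the arrays of a kind biological replicates, but both MAPC arrays share 1 clone, so p-values and errors here cover only the spread of these samples, which may be technical, and none between clones.

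Each array was hybridized with Cy3-labelled RNA of the sample and a Cy5-labelled reference RNA pooled from 11 mouse cell lines, one of them from testis, and the dyes were not swapped. Values are given on 2 scales. The first is the log2 ratio of sample to reference, and the second is the log2 intensity of the sample channel alone. Intensities quoted per array are background-subtracted. Between 91.9% and 99.6% of the probe spots were marked well above background in the sample channel, so that mark is a low bar. Feature Extraction processed all replicate 1 arrays on one day and all replicate 2 arrays on another, and differences taken within a day are given below where they bear on a value.

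Germ cells arise in the mouse embryo from cells that switch on a set of genes also active in pluripotent cells, and later they run their own programmes of transposon silencing, meiosis and gamete formation. Many germline genes are kept silent in somatic cells by DNA methylation and by repressors such as E2F6 and the non-canonical Polycomb complexes. Some of them, including several Dppa genes (developmental pluripotency associated), are transcribed in embryonic stem cells and in the early embryo. Neural progenitors are somatic cells in which such genes are normally silent.

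The 7 genes did not share one pattern in MAPC. Dppa3, Dppa4, Morc1 and Tcl1 were 11.9-fold or more lower in MAPC than in ESC in the sample channel and near their level in NS. Rhox5 and Rpl39l were as high in MAPC as in ESC or higher, with sample-channel folds over NS of 91.5 and 88.6. Dppa5a lay between ESC and NS in the sample channel, while on the log2 ratio it stood near ESC. Fewer cells of a type and less RNA per cell cannot be told apart in such bulk RNA. All 7 were at least 2-fold higher in ESC than in NS on the log2 ratio, as were 4.75% of all genes tested.

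With kept taken as at least 2-fold above NS and less than 2-fold below ESC, and lost as at least 2-fold below ESC and less than 2-fold above NS, the log2 ratios placed 3 genes as kept (Dppa5a by its brightest probe, which was saturated in the sample channel on both ESC arrays, Rhox5 and Rpl39l) and 4 as lost (Dppa3, Dppa4, Morc1, Tcl1). Over all genes tested, 4.3% were kept and 5.52% lost by the same rule, and 4.93% and 4.86% in the sample channel alone. Singly, 5.66% of genes were at least 2-fold lower and 2.94% at least 2-fold higher in MAPC than in ESC, and 4.44% at least 2-fold higher than in NS. In the sample channel alone Dppa5a moved to a class in between, at least 2-fold below ESC and at least 2-fold above NS, which held 0.185% of all genes on that scale and 0.137% on the log2 ratio. The members were chosen from these contrasts, so nothing is read from their share.

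**Figure D1:**
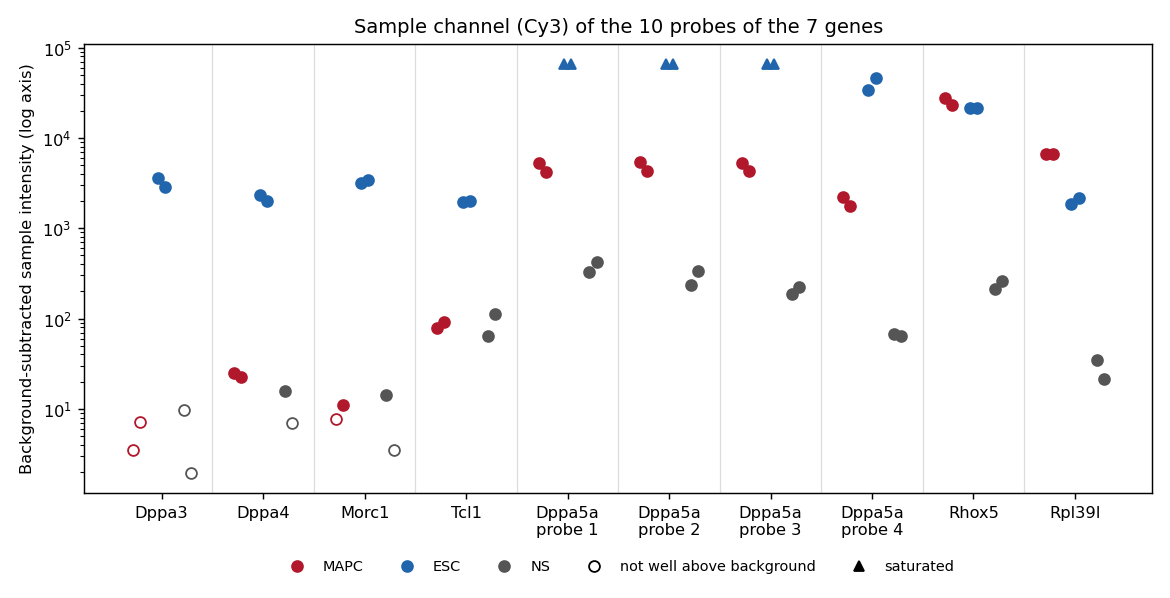
Background-subtracted sample (Cy3) intensity of each of the 10 probes on a log axis, with 1 point per array and the groups MAPC, ESC and NS from left to right within each probe. Open points were not well above background and triangles were saturated. The ESC arrays stand high at every probe, and the MAPC arrays stand with ESC for Rhox5, above ESC for Rpl39l, between the other groups for Dppa5a and near NS for the remaining 4 genes.

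The 4 genes at or near their NS level in MAPC are shown first, each with its 60-base probe, since a single probe carries the value of each.

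Dppa3: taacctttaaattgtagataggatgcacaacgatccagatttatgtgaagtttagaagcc
Dppa4: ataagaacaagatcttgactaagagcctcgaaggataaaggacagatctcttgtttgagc
Morc1: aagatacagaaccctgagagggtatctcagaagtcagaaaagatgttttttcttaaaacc
Tcl1: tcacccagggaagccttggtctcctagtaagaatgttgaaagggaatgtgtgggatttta

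Dppa3 on chromosome 6, also known as Stella, marks primordial germ cells and guards the maternal genome against loss of DNA methylation in the early embryo. Its probe gave intensities of 3.49 and 7.09 in MAPC, 3565 and 2848 in ESC, and 9.59 and 1.95 in NS. Neither MAPC array and neither NS array was well above background, and between 24.8% and 59.2% of the negative control spots were dimmer than the probe there. After loess and Aquantile normalization of the sample channel, the scale used for bounds throughout, Dppa3 was at least 74.4-fold lower in MAPC than in ESC, set against the dimmest probe well above background on each MAPC array. The quantile-normalized sample channel gave a smaller measured fold of 55.0 with no floor set, so the bound holds on its own scale only. Between MAPC and NS, both below background, no fold can be given. The log2 ratios were -0.03 on both MAPC arrays and 4.22 and 4.17 on the ESC arrays, and the MAPC values, below background in both channels, carry no exact size.

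Dppa4 on chromosome 16 codes for a nuclear protein that works with Dppa2 and switches on genes of the early embryo. It read 24.8 and 22.3 in MAPC, 2341 and 1990 in ESC, and 15.6 and 7.0 in NS. All MAPC and ESC arrays were well above background, and 1 of the 2 NS arrays was. The MAPC minus ESC difference was -3.84 ± 0.059 (moderated SE, n = 2 arrays per group, here and below) on the log2 ratio and -4.70 ± 0.14 in the sample channel. Against NS, MAPC stood slightly higher, by 0.53 ± 0.059 on the log2 ratio and 0.43 ± 0.14 in the sample channel. With NS this close to background the gap carries no exact size, and without background subtraction it was 0.11. Under the scanner software's own dye-normalized intensities this gap grew to 1.68, which placed Dppa4 in the class in between (0.221% of all genes there).

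Morc1, on the same chromosome, codes for an ATPase that represses retrotransposons in male germ cells and is needed for sperm formation. Its intensities were 7.70 and 11.0 in MAPC, 3191 and 3429 in ESC, and 14.3 and 3.52 in NS. In MAPC and in NS 1 of 2 arrays was well above background. The MAPC minus ESC difference was -5.51 ± 0.062 on the log2 ratio and -5.69 ± 0.084 in the sample channel. Within each processing day the log2 ratio difference was -5.50 and -5.51. With MAPC this close to background, the differences from ESC carry no exact size. The log2 ratio difference was -7.57 with the scanner software's own dye-normalized intensities and -3.60 without background subtraction. MAPC and NS differed by 0.19 ± 0.062 on the log2 ratio, but both were near background, so neither size nor sign is exact. That difference ran from -0.17 with the authors' deposited log10 values to 0.41 with the scanner software's dye-normalized intensities.

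Tcl1 on chromosome 12, an activator of the kinase AKT that is abundant in oocytes and early embryos, had the same order of groups at a higher floor. It read 78.4 and 91.2 in MAPC, 1934 and 1991 in ESC, and 63.5 and 113 in NS, and every array was well above background. The NS arrays enclosed the MAPC arrays in intensity before normalization, but not on either normalized scale. The MAPC minus ESC difference was -3.78 ± 0.12 on the log2 ratio and -3.57 ± 0.14 in the sample channel, and the MAPC minus NS difference was -0.06 ± 0.12 on the log2 ratio and 0.31 ± 0.14 in the sample channel.

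The 4 Dppa5a probes are printed together because they disagree on the log2 ratio. Capitals mark a run of 42 bases that probes 1 and 3 share, so those 2 are not separate readings of the transcript. No other pair of the 10 probes shared a run longer than 9 bases.

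Dppa5a probe 1: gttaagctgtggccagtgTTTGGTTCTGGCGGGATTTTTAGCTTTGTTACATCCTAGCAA
Dppa5a probe 2: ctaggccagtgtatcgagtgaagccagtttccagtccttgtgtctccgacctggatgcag
Dppa5a probe 3: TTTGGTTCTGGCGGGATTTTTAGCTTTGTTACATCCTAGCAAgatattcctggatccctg
Dppa5a probe 4: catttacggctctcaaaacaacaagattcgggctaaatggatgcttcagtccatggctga

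Dppa5a on chromosome 9, also known as Esg1, codes for an RNA-binding protein of embryonic stem cells and germ cells. RefSeq also lists the pseudogenes Dppa5b and Dppa5c on that chromosome, and whether the probes match them was not tested. Probe 4, the only one not saturated in ESC, gave 2241 and 1768 in MAPC, 34292 and 45766 in ESC, and 66.7 and 64.0 in NS. The 3 groups were far apart. In the sample channel, MAPC minus ESC was -4.24 ± 0.18 (1 MAPC array, since the spot of replicate 1 carried an outlier mark), a fold of 18.9, and MAPC minus NS was 4.16 ± 0.18, a fold of 17.9.

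Probe 1 was the brightest and gave 5271 and 4244 in MAPC, 65155 and 65157 in ESC, and 330 and 427 in NS. Both ESC values were saturated for probes 1, 2 and 3, so the fold is a bound. Dppa5a was at least 10.8-fold lower in MAPC than in ESC by probe 1, at least 10.6-fold by probe 2 and at least 10.5-fold by probe 3. Against NS, MAPC was higher by 3.53 to 4.29 log2 units in the sample channel over the 4 probes.

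On the log2 ratio the same 4 probes gave MAPC minus ESC differences of 0.09, -0.44, 0.47 and -0.79 for probes 1 to 4. Those of probes 1 to 3 rest on saturated ESC spots and are not exact. They took both signs and none reached 2-fold, where the sample channel placed every probe at least 10.5-fold lower in MAPC. The nearly equal log2 ratios of Dppa5a in MAPC and ESC thus come with a reference signal that differed between those arrays. MAPC minus NS lay between 3.46 and 4.15 on the log2 ratio, near the sample channel.

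**Figure D2:**
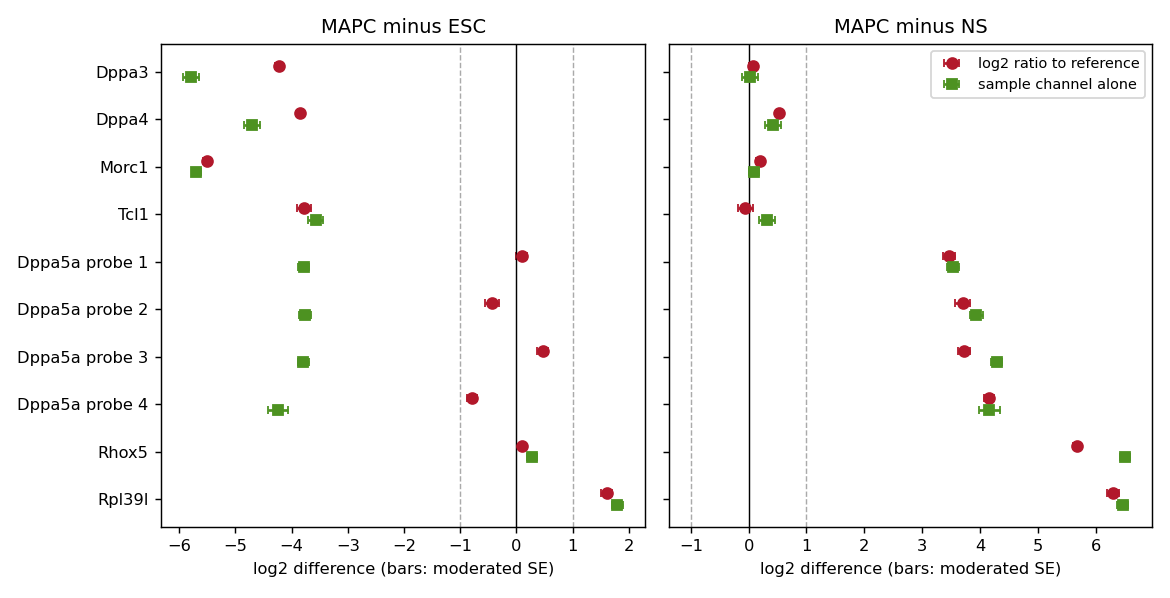
Group differences of the 10 probes in log2 units, MAPC minus ESC on the left and MAPC minus NS on the right, as log2 ratio to the reference (circles) and in the sample channel alone (squares), with moderated SE as bars and dashed lines at 2-fold. The scales part widely for Dppa5a against ESC, where the log2 ratios lie between -0.79 and 0.47 and the sample channel between -4.24 and -3.76. Probes 1 to 3 were saturated in ESC, so their points against ESC are not exact, and Dppa3 was not well above background in MAPC or NS.

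The reference RNA was the same pool on every array, yet its signal at several of these probes differed between the groups. At Dppa5a probe 4 the reference read 176 and 150 on the MAPC arrays, 1426 and 1958 on the ESC arrays, and 85.3 and 88.5 on the NS arrays. Dppa3 showed the same pattern, with 6.88 and 11.1 on the MAPC arrays, 379 and 355 on the ESC arrays, and 14.2 and 9.55 on the NS arrays. The reference signal of both genes was thus high wherever the sample itself was ESC.

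Dppa4 read 56.9 and 59.1 in the reference channel of the MAPC arrays, 317 and 293 on the ESC arrays, and 58.1 and 70.6 on the NS arrays. In contrast, the reference at Rpl39l held at 6390 and 7032 on the MAPC arrays, 6068 and 6802 on the ESC arrays, and 6294 and 7119 on the NS arrays. Rhox5 was nearly as even, between 4710 and 7455 over the 6 arrays. After quantile normalization the reference channel differed between MAPC and ESC arrays by -3.59 to -2.74 log2 units over the Dppa5a probes, -2.67 for Dppa3, -1.52 for Dppa4, -0.32 for Morc1 and 0.04 for Tcl1.

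A shift of the reference in the direction of the sample was not limited to these genes. Among 187 genes that were lower in MAPC than in ESC by 3 to 5 log2 units in the sample channel, the median reference difference was -0.18, and it had the sign of the sample difference in 77.5% of them. Among 18 genes lower by over 5 units the median was -0.97. Against the median of its own class, the reference difference was lower for the Dppa5a probes, Dppa4 and Dppa3, and higher for Morc1 and Tcl1. The cause of the shift was not tested. For genes with such a shift the log2 ratio gives a smaller difference than the sample channel, and directions below are on the log2 ratio unless the sample channel is named.

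**Figure D3:**
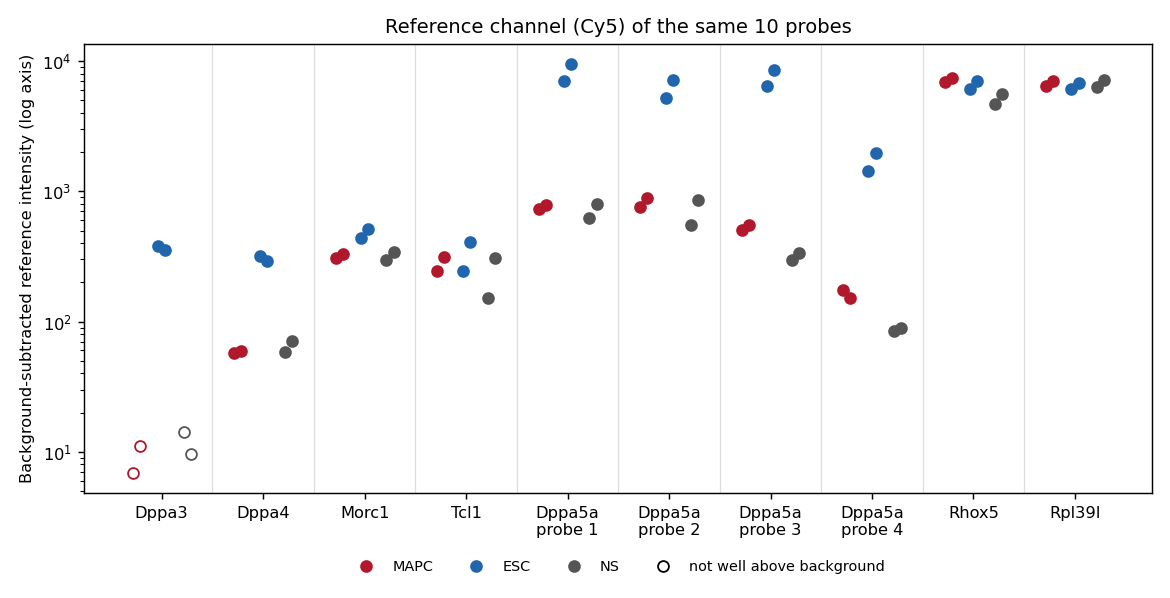
Background-subtracted reference (Cy5) intensity of the same 10 probes on a log axis, 1 point per array, with the groups as MAPC, ESC and NS from left to right. Open points were not well above background. The reference stands high on the ESC arrays for Dppa3, Dppa4 and all Dppa5a probes, and is nearly level over the 6 arrays for Rhox5 and Rpl39l.

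**Figure D4:**
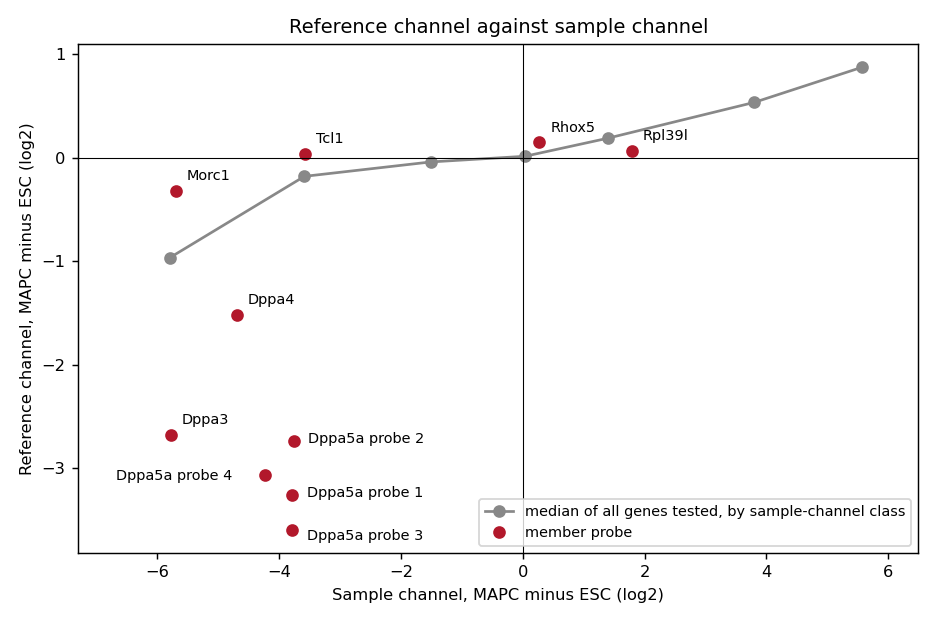
MAPC minus ESC in the reference channel (vertical, log2) against MAPC minus ESC in the sample channel (horizontal, log2) for the 10 probes, with the median of all genes tested in 7 classes of sample-channel difference as a grey line. The Dppa5a probes lie between -3.59 and -2.74 on the vertical axis, against a median of -0.18 for the class of genes lower by 3 to 5 units.

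Rhox5 and Rpl39l, the genes that stood as high in MAPC as in ESC, are shown with their probes.

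Rhox5: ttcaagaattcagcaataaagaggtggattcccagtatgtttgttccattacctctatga
Rpl39l: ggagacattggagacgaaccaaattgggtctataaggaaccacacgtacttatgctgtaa

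Rhox5 on chromosome X, also known as Pem, is a homeobox gene of the reproductive tissues and the placenta and a member of a large cluster of related genes. It was among the brightest probes of the array in both MAPC and ESC, with 27334 and 22870 in MAPC, 21240 and 21373 in ESC, and 214 and 257 in NS. At least 99.1% of probes were dimmer on each MAPC and ESC array, and 63.1% to 63.7% on the NS arrays. MAPC lay 0.11 ± 0.060 log2 units above ESC on the log2 ratio and 0.27 ± 0.087 in the sample channel, and 5.68 ± 0.060 above NS. The gap between MAPC and ESC was small beside that to NS.

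Rpl39l on chromosome 16 codes for a variant of the ribosomal protein RPL39 that is known from testis. Its levels followed the order MAPC, ESC, NS, with 6686 and 6702 in MAPC, 1846 and 2164 in ESC, and 34.3 and 21.3 in NS. MAPC stood above ESC by 1.61 ± 0.099 on the log2 ratio and by 1.80 ± 0.098 in the sample channel, a fold of 3.47. Above NS it stood by 6.30 ± 0.099 and 6.47 ± 0.098. It was the only one of the 7 genes at least 2-fold higher in MAPC than in ESC, and on both scales.

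Differences were also taken within each processing day. Between MAPC and ESC they were -3.78 and -3.91 for Dppa4, -4.0 and -3.56 for Tcl1, and 1.65 and 1.56 for Rpl39l on the log2 ratio. Rhox5 gave 0.12 and 0.09. Dppa3, below background in MAPC, and the Dppa5a probes saturated in ESC give no exact size here. Between MAPC and NS, Dppa5a probe 1 gave 3.54 and 3.38, Rhox5 5.76 and 5.59, and Rpl39l 6.15 and 6.45.

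Its parent Rpl39, the widely expressed X-linked copy, gave 321 to 354 in MAPC, 443 to 447 in ESC, and 419 to 491 in NS. Rpl39 differed by -0.17 between MAPC and ESC (adjusted p = 0.055 in limma) and by -0.15 between MAPC and NS (adjusted p = 0.0644), and the probes of the 2 genes shared no run longer than 5 bases. A list of 15 other ribosomal proteins and their paralogs had 13 measured genes, of which 1 was higher and 8 lower in MAPC than in ESC (0 and 8 in the sample channel), and 3 higher and 8 lower than in NS (3 and 6). That is 69.2% and 84.6% called on the log2 ratio, beside 38.1% and 43.7% of all genes. Rpl22, a ribosomal protein, fell by 1.08 (adjusted p = 1.63e-05) and its paralog Rpl22l1 fell by 1.45 (adjusted p = 2.9e-06) against ESC, and both were also lower than in NS, by -2.0 and -1.79. The median difference of the list was -0.44 against ESC, beside 0.01 for all genes.

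RefSeq promoter sequences (GRCm38.p6, 250 bases before to 50 after the start) were given for 3 of the 7 genes, 1 of them lower in MAPC than in ESC and 2 not. They are shown because these genes part ways in MAPC and because CG dinucleotides, printed in capitals, are the sites of DNA methylation. Tcl1 lies on the minus strand at chr12:105222688-105222987, Rhox5 on the plus strand at chrX:37754358-37754657, and Rpl39l on the plus strand at chr16:10169978-10170277.

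Tcl1: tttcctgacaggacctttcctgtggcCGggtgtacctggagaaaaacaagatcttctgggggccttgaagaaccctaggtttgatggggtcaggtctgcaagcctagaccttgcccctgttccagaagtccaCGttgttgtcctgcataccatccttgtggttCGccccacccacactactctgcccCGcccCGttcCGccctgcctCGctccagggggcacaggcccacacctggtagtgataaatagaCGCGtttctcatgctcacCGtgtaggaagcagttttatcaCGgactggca
Rhox5: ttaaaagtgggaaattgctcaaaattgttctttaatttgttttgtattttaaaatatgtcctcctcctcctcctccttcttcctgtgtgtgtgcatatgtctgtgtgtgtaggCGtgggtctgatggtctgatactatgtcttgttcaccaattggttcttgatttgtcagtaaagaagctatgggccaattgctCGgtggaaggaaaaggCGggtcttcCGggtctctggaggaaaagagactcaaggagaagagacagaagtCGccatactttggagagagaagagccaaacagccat
Rpl39l: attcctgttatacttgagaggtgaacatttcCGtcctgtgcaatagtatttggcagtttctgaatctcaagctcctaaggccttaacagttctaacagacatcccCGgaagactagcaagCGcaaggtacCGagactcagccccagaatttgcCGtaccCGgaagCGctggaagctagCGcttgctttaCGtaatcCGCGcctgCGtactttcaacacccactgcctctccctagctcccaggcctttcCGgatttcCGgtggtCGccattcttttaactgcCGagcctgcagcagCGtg

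The Tcl1 window holds 11 CG, the Rhox5 window 5 and the Rpl39l window 17, beside a median of 7 over 32851 promoters. At least as many CG as Rpl39l were found in 31.4% of promoters, and at most as many as Rhox5 in 43.6%. On both strands, none of the 3 windows holds the E-box CACGTG, the E2F core GCGGGA or the octamer ATGCAAAT, which occur in 7.15%, 19.975% and 1.735% of promoters. Each motif was counted on its own, and no match says only that these letters are not in these windows. Methylation was not measured here.

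Genes that lie beside the members gave a mixed picture. In RefSeq order, Dppa3 lies between Gdf3 and Nanog. Gdf3, a growth factor of pluripotent cells, differed between MAPC and ESC by -3.01 ± 0.056 on the log2 ratio (adjusted p = 2.77e-08 in limma). Its sample signal fell short of the background mark on both MAPC arrays, so that difference carries no exact size. On the sample-channel scale used for bounds, Gdf3 was at least 33.3-fold lower in MAPC than in ESC, and this bound was not tested. The quantile-normalized sample channel gave a smaller difference, -4.61 log2 units with no floor set, so the bound holds on its own scale only. Ooep, an oocyte gene beside Dppa5a, was lower in MAPC than in ESC by -3.98 ± 0.16 (adjusted p = 7.16e-07) and differed from NS by 0.42 (adjusted p = 0.0634). Its intensities were 64.3 to 137 in MAPC and 3461 to 4182 in ESC. Against NS the adjacent pair Ooep and Dppa5a thus stood apart in MAPC. Ooep was near its NS level, and Dppa5a was 11.0-fold or more above NS on the log2 ratio by every probe. Against ESC both were lower in MAPC in the sample channel, Ooep by -4.40 and Dppa5a probe 4, not saturated in ESC, by -4.24.

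Dppa4 and Morc1 are themselves near neighbours on chromosome 16, with Dppa2 between them, and both were low in MAPC. Of the 5 measured Tcl1b genes, relatives of Tcl1 that lie next to it, none passed the test in either contrast on the log2 ratio, and in the sample channel Tcl1b5 passed against NS (0.55, adjusted p = 0.0464). Their log2 ratio differences between MAPC and ESC were -0.19 to 0.07. Each of 2 neighbours of Rpl39l shared its direction in 1 contrast. Atf7ip2 differed by -0.66 from ESC and by 1.11 from NS, and Emp2 was 1.96 higher than in ESC and not past the threshold against NS (0.34, adjusted p = 0.0655).

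The Rhox genes, homeobox genes of the X-linked cluster that holds Rhox5, were measured at 6 further members of 13 listed. Of these, 1 rose and 3 fell in MAPC against ESC, and 4 rose against NS. Over all genes tested, 38.1% passed in MAPC against ESC (15.9% higher, 22.1% lower) and 43.7% in MAPC against NS (21.2% higher, 22.5% lower), on the sample channel 25.4% and 33.8%. Rhox2a was higher in MAPC than in both, with 1472 to 1492 in MAPC, 74.3 to 130 in ESC and 63.5 to 100 in NS, and differences of 3.54 ± 0.14 (adjusted p = 7.13e-07) and 3.88 ± 0.14 (adjusted p = 2.78e-07). A second Rhox2a probe gave 2.17 and 2.39.

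Rhox6, the next gene to Rhox5, and Rhox9 held a middle level. Rhox6 read 675 to 686 in MAPC, 1350 to 1580 in ESC and 138 to 162 in NS, with differences of -0.74 (adjusted p = 0.00695) and 2.05 (adjusted p = 1.94e-05). Its other probe gave -0.81 and 3.14. Rhox9 differed by -1.38 (adjusted p = 0.000436) and 2.15 (adjusted p = 3.48e-05), with 1 MAPC array in the fit because the other spot carried an outlier mark. Rhox4b was lower than in ESC, by -1.12 (adjusted p = 2.02e-06). Rhox2a and Rhox4b belong to groups of near-identical copies, so their signal may be shared among copies. The remaining 2, Rhox3a (0.12, adjusted p = 0.233) and Rhox11 (0.16, adjusted p = 0.0702), did not pass against ESC.

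Morc4, the only other Morc gene measured, was higher in MAPC than in ESC by 1.59 ± 0.067 (adjusted p = 1.08e-06) and than in NS by 1.15 (adjusted p = 4.04e-06), the opposite direction to Morc1 against ESC. It read 240 to 279 in MAPC, 75.7 to 94.4 in ESC and 114 to 128 in NS. Dppa1, the other measured Dppa gene, gave -0.01 and 0.05 and did not pass. Dppa2 and Prdm14 were not analysed here.

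Over the wider germline programme, 97 of 141 further listed genes were measured. In MAPC 14 were higher and 32 lower than in ESC (12 and 27 in the sample channel), a share of 47.4% called beside 38.1% of all genes. Against NS 26 were higher and 12 lower (24 and 12), 39.2% beside 43.7%. The median difference was -0.02 against ESC and 0.10 against NS, beside 0.01 and 0.03 for all genes. In ESC 37 were higher and 10 lower than in NS (31 and 10), 48.5% beside 38.2% of all genes (19.8% higher, 18.4% lower).

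Primordial germ cell regulators, which specify the germline and guide its founders, gave 4 higher and 9 lower of 18 measured against ESC (3 and 9 in the sample channel). That is 72.2% called on the log2 ratio, beside 38.1% of all genes. Tfap2c, a transcription factor of germ cell specification, was lower by -3.14 ± 0.11 (adjusted p = 3.96e-07), with 34.4 to 41.9 in MAPC and 698 to 812 in ESC. Ifitm1, a membrane protein of early germ cells, was lower by -2.96 (adjusted p = 4.21e-08), and Smad1, which relays the bone morphogenetic protein signal, by -2.0 (adjusted p = 2.81e-06). Prdm1, a repressor of somatic genes in germ cell precursors, was lower by -0.96 (adjusted p = 6.07e-06), and by -1.45 at its other probe.

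Higher than in ESC were Pdpn by 1.58 (adjusted p = 6.36e-06), a surface glycoprotein, and Kit by 2.14 (adjusted p = 2.68e-07), the receptor of stem cell factor. For Kit the 3 probes disagreed, since the others gave 1.55 and -0.39. The germ cell helicase Ddx4 was lower by -1.10 (adjusted p = 0.000238), and by -2.12 at its other probe. The RNA-binding Dazl was lower by -0.71 (adjusted p = 0.000137), and Nanos3 did not pass (-0.08, adjusted p = 0.352). Signals of Dazl were dim, 19.5 to 29.6 in MAPC and 74.3 to 103 in ESC.

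Against NS the same list gave 5 higher and 4 lower (5 and 3 in the sample channel), a share of 50% near the 43.7% of all genes. Pdpn was higher by 2.81 (adjusted p = 1.91e-07), Lin28a, which blocks maturation of let-7 microRNAs, by 2.49 (adjusted p = 1.23e-07), and Kit by 2.34 (adjusted p = 1.01e-07), with 1.53 and -0.69 by its other probes. Smad1 was lower by -3.17 (adjusted p = 1.59e-07) and the Kit ligand Kitl by -2.83 (adjusted p = 2.74e-06). Ddx4 did not differ past the threshold (-0.03, adjusted p = 0.878), while in the sample channel it did (0.37, adjusted p = 0.0201), and so did Nanos3 (0.54, adjusted p = 0.00692). The other Ddx4 probe gave -0.35 on the log2 ratio, the opposite sign to the sample-channel value.

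The piRNA pathway, which silences transposons in the male germline, gave 2 higher and 4 lower of 14 against ESC. That is a share of 42.9%, near the 38.1% of all genes, and the sample channel gave 2 and 3. Against NS the pathway gave 4 higher and 1 lower (3 and 1 in the sample channel), 35.7% beside 43.7% of all genes. Asz1, a germ granule protein, was higher in MAPC than in ESC by 4.19 ± 0.074 (adjusted p = 2.45e-08) and than in NS by 4.05 (adjusted p = 1.32e-08), with 1555 to 1822 in MAPC, 39.6 to 74.9 in ESC and 51.7 to 53.4 in NS. Tdrd12, which acts in secondary piRNA formation, was lower than in ESC by -3.87 ± 0.083 (adjusted p = 4.49e-08), with 26.4 to 32.9 in MAPC and 1843 to 2027 in ESC. Tdrd12 was also among the 3 genes nearest to Tcl1 in profile. Pld6, a mitochondrial enzyme of the pathway, was lower by -1.14 (adjusted p = 0.000397), and against NS Tex19.1 was higher by 1.01 (adjusted p = 8.92e-06) and Ddx25 lower by -1.45 (adjusted p = 2.77e-06).

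Genes of meiosis were lower in MAPC than in ESC in 11 of 17 cases and higher in 1, with a median of -0.59. The share called was 70.6%, beside 38.1% of all genes (15.9% higher, 22.1% lower). In the sample channel 8 of the 17 were lower and 1 higher, where 25.4% of all genes were called. Stra8, the gatekeeper of meiotic entry, was lower by -2.95 ± 0.20 (adjusted p = 1.39e-05), with 22.8 to 23.7 in MAPC, 365 to 935 in ESC and 20.3 to 22.6 in NS. Lower too were Syce2 by -2.12 (adjusted p = 3.89e-07) and Sycp3 by -1.18 (adjusted p = 2.12e-06), both of the synaptonemal complex, Hormad1 by -1.99 (adjusted p = 8.96e-07), a protein of chromosome axes, and Tex14 by -1.39 (adjusted p = 3.6e-05), needed for bridges between germ cells. Sycp3 was dim, 11.7 to 14.6 in MAPC and 65.9 to 67.8 in ESC, and ran from -2.61 to -0.27 over the alternative settings. Hormad1 was dim in MAPC, 17.0 to 23.1, and read 209 to 219 in ESC. Against NS 2 were higher and 5 lower, Syce2 among them (-1.23, adjusted p = 4.51e-06), and in the sample channel 4 and 4. The share called against NS was 41.2% on the log2 ratio, near the 43.7% of all genes.

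Of 14 measured oocyte genes, 1 was higher and 2 lower in MAPC than in ESC, a share of 21.4% beside 38.1% of all genes. Gdf9, a growth factor of the oocyte, was higher by 2.49 ± 0.12 (adjusted p = 1.71e-06) and against NS by 1.09 (adjusted p = 0.000126), with 391 to 402 in MAPC, 50.6 to 69.4 in ESC and 169 to 204 in NS. Beside Ooep, the egg coat gene Zp3 was lower than in ESC, by -1.28 (adjusted p = 2.9e-05), at dim signals of 9.56 to 17.3 in MAPC and 91.6 to 92.5 in ESC, with 1 of the 2 MAPC arrays well above background. Of 21 spermatogonium and spermatid genes, 4 were higher and 3 lower than in ESC (3 and 2 in the sample channel), a share of 33.3%. Id4, a marker of spermatogonial stem cells that is also active elsewhere, was higher by 1.73 (adjusted p = 8.74e-06), Rbmy, from a multi-copy family, by 1.04 (adjusted p = 1.08e-05; 0.52 by its other probe), and the sperm lactate dehydrogenase Ldhc was lower by -1.11 (adjusted p = 9.69e-05). Against NS 9 were higher and 2 lower on the log2 ratio, 52.4% beside 43.7% of all genes, but 5 and 4 in the sample channel. Among them on the log2 ratio were Rbmy at 1.26 (adjusted p = 2.56e-06), Id4 at 1.13 (adjusted p = 7.18e-05) and Usp26 at -2.15 (adjusted p = 1.97e-06).

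**Figure D5:**
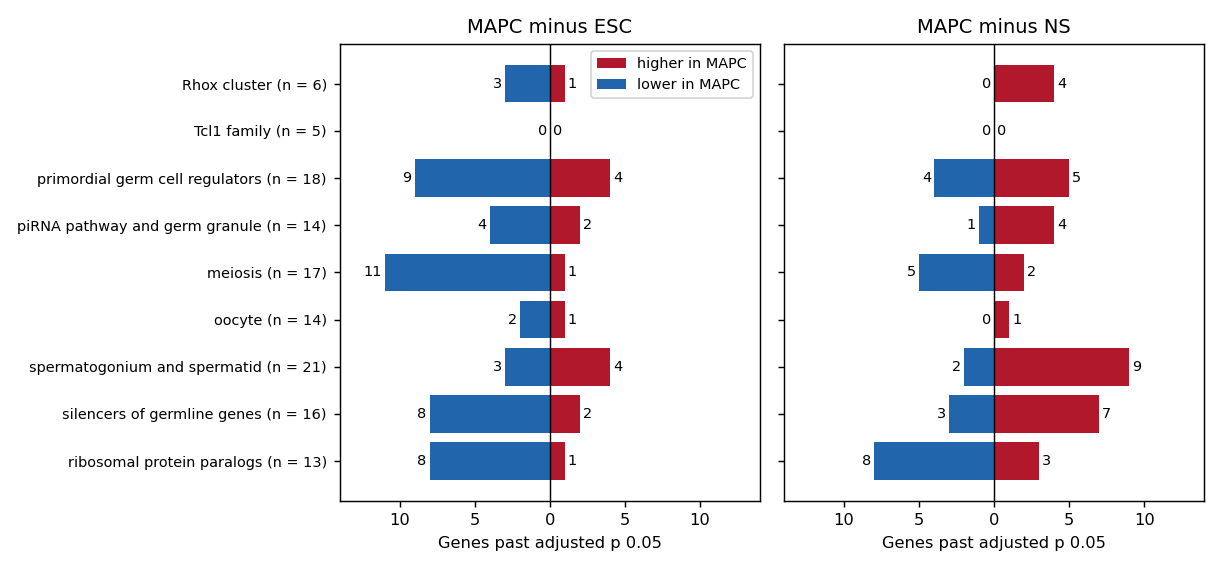
Numbers of genes past an adjusted p of 0.05 in limma per list, higher in MAPC to the right and lower to the left of 0, for MAPC minus ESC and MAPC minus NS, with the number measured beside each list. Meiosis genes were lower in MAPC than in ESC in 11 of 17 cases, beside 22.1% of all genes. The 5 measured Tcl1 family genes passed in neither contrast on the log2 ratio.

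The repressors and DNA methylation enzymes that act on germline genes were 2 higher and 8 lower of 16 measured against ESC (2 and 7 in the sample channel), and 7 higher and 3 lower against NS (6 and 2). On the log2 ratio 62.5% were called in each contrast, beside 38.1% and 43.7% of all genes. Dnmt3b, which adds new DNA methylation, was lower than in ESC by -1.16 ± 0.079 (adjusted p = 1.36e-05) and higher than in NS by 3.22 (adjusted p = 4.45e-08). Its intensities were 2933 to 3694 in MAPC, 17944 to 33406 in ESC and 234 to 261 in NS, so it held a middle level as Dppa5a did in the sample channel. Dnmt3l, the cofactor of new DNA methylation, was higher than in NS by 3.19 (adjusted p = 1.25e-08), and the chromatin remodeller Hells by 1.09 (adjusted p = 1.46e-06).

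For each member, the 3 named genes nearest to it in profile were found among 11985 by the Euclidean distance of the 6 log2 ratios, each gene centred on its own mean. Nearest to Dppa3 were Zbtb32, Zfp979 and Aire, and nearest to Dppa4 were Plac8, Spint2 and Ooep. Dppa3 was below background on the MAPC and NS arrays, so its distances are not exact. In the sample channel Dppa3 differed between MAPC and ESC by -5.78, and Zbtb32, Zfp979 and Aire by -3.73, -4.86 and -4.16. Nearest to Morc1 were Inhba, Nr0b1 and Eras, of which Nr0b1 and Eras are genes of pluripotent cells, and Tcl1 by Cyct, Tdrd12 and Slc35f2, of which Cyct codes for the testis cytochrome c. Their MAPC minus ESC differences lay between -5.79 and -3.67, and the smallest distance was 0.123, for Cyct to Tcl1.

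Nearest to Dppa5a by its brightest probe were Echdc2, Dnmt3l and Trap1a. In the sample channel those 3 differed between MAPC and ESC by 0.18, -0.44 and 0.47, whereas Dppa5a was at least 10.8-fold lower by that probe. The probe was saturated in ESC, so its log2 ratios there and the distances that use them are not exact. Rhox5 and Rpl39l had no close match. Nearest to Rhox5 was Rpl39l at a distance of 1.54, followed by Dusp9 and Fabp3, and nearest to Rpl39l were Ccn2 at 0.927, Tfpi and Dusp9. The 6 arrays share the reference pool and hold 3 groups, so these distances describe a pattern over 3 levels.

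Marker genes of several cell types also differed between the groups, in both directions, where 38.1% of all genes were called against ESC and 43.7% against NS. Of 9 embryonic stem cell markers, 9 were lower in MAPC than in ESC (8 in the sample channel), and their summed intensity was 1376 to 1500 in MAPC, 23879 to 25172 in ESC and 13750 to 17271 in NS, the NS sum being mostly Sox2. Pou5f1, which codes for Oct4, was lower than in ESC by -2.02 (adjusted p = 5.1e-05) and higher than in NS by 1.39 (adjusted p = 0.000333), so the clone described as high in Oct4 stood below ESC. Sox2 read 10.6 to 17.9 in MAPC and 9519 to 10063 in ESC.

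All 5 measured primitive endoderm markers were higher in MAPC than in either other group, with a summed intensity of 29873 to 30076 in MAPC, 709 to 1182 in ESC and 792 to 852 in NS. Of 7 feeder fibroblast markers 6 were lower in MAPC than in ESC (7 in the sample channel), with sums of 965 to 1052 in MAPC, 16039 to 17442 in ESC and 7211 to 8150 in NS, although ESC had been plated without feeders. Postn, one of the brightest of them in ESC, was at least 80.5-fold lower in MAPC, below background on both arrays. Of 5 measured markers of Sertoli and other testis somatic cells, 1 was higher in MAPC than in ESC, with sums of 363 to 377 in MAPC, 346 to 435 in ESC and 1571 to 1747 in NS. Of these 5, 3 were lower in MAPC than in NS on the log2 ratio, and in the sample channel 1 was lower (Dhh) and 1 higher (Cyp17a1). None of 4 blood markers passed on the log2 ratio, with sums of 918 to 1028 in MAPC, 877 to 1375 in ESC and 893 to 918 in NS, while in the sample channel Itgam was higher than in NS (0.40, adjusted p = 0.0276). The 7 neural progenitor markers were all lower in MAPC than in NS, with sums of 271 to 324 in MAPC, 9979 to 10710 in ESC and 90119 to 95591 in NS. The ESC sum was mostly Sox2, which is also on the embryonic stem cell list. Against ESC, 5 of the 7 were lower in MAPC on the log2 ratio and 2 in the sample channel. The part of other cells in the members' differences was not tested.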

How the data were processed

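Per the file headers, the deposited files were written by Agilent Feature Extraction, version A.7.5.1, and hold spot and local background intensities for both dyes, the software's background-subtracted and dye-normalized intensities, and a log10 ratio of red over green. The deposited series matrix holds log10 values by the authors, with column medians from 2.95 to 2.97 and an unstated rule. Within a column they ranked like the sample intensity (Spearman 0.992 to 0.995), while differences between arrays equalled those of the software's log ratio, sample over reference, within 0.01 for 89.1% to 92.6% of probes. How levels were set stays unknown. No source used here names a genome build.

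Intensities were corrected with normexp (offset 50) and normalized by loess within arrays in limma 3.58.1 under R 4.3.3 (reading with data.table, version 1.17.8), then turned to log2 of sample over reference. Control spots (2396) and outlier-marked spots were left out. Names came from a RefSeq table: 15294 of 41006 probes by accession, 23 by symbol, 112 by older symbol, 25577 unnamed. The brightest probe stood for a gene, and a gene was tested if well above background on both arrays of at least 1 group, which left 35785 genes, 12154 of them named. All 6 arrays entered 1 limma fit (lmFit, eBayes, two-sided), which leaves 3 residual degrees of freedom. P-values were adjusted by Benjamini-Hochberg over the genes of a contrast, with a threshold of 0.05. The sample channel alone is log2 normexp Cy3 after quantile normalization. Bounds ("at least N-fold") use sample-channel values after loess and Aquantile, which without a dye swap stay open to dye bias, and they hold on that scale only.

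The members and the gene lists were chosen with earlier results of these data known. Named beside the members were, per list and contrast, up to 4 genes in each direction past the threshold, at least 2-fold apart and without overlap between arrays, plus Ddx4, Dazl, Nanos3, Prdm1, Prdm14, Sycp3, Stra8, Rpl39 and Dppa2, and the 3 nearest genes of each member. Chromosomal neighbours and marker genes were named outside that rule, after their values were seen. The fit was tested on simulated data. Same-numbered arrays deviated together by correlations of 0.104 to 0.208 across genes, and share a Feature Extraction day. The number of sample columns that could not be tied to a sample was 0. The number of arrays limits the precision.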

Additional observations from a re-analysis of the deposited data

How the results depend on the processing

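Kept, lost and middle classes numbered 3, 4 and 0 on the log2 ratio, and leaving out each array in turn gave 3, 4 and 0 each time. The middle class held 1 gene with the sample channel alone (Dppa5a), with the processed intensities (Dppa4) and with the series matrix (Dppa4), whose differences follow the same log ratio as the processed intensities. The 1.5-fold and 4-fold thresholds gave the same classes as 2-fold. The numbers of genes called over the whole array and of germline list genes called stayed within 1.5 times under every alternative run: no background subtraction, median centring, processed intensities, sample channel alone, probe averages, no filter, outlier spots kept, fits of 2 groups and each array left out. For MAPC against ESC the sample channel alone called 9092 genes, against 13611. With the replicate number as a block, MAPC against ESC gave 14176 genes and 49 germline list genes, MAPC against NS 16309 and 42, and ESC against NS 14156 and 50. The replicate block ended no call among the genes named. Leaving out each array in turn gave 42 to 46 germline list genes against ESC and 32 to 41 against NS. Of 53 named results past the threshold, Dazl against NS lost its call without background subtraction, in the sample channel and without any 1 of the MAPC or NS arrays, and Pld6 against ESC lost it with processed intensities (adjusted p = 0.0628). Rpl39, not past the threshold in either contrast, passed in both with median centring and without background subtraction. Member differences of at least 2-fold on the log2 ratio kept their sign under the 16 alternatives. Several of these cannot move a member difference: no filter, the replicate block, fits of 2 groups, and leaving out an array outside the contrast. The Dppa5a difference between MAPC and ESC ranged from -3.79 to 0.25 by a probe saturated in ESC. The cause of these changes was not tested.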
